A study of Mus musculus with 9 samples.

Results

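The genes of the collecting duct sodium channel and of the aldosterone response were followed in mouse kidney, in a study of hyperuricemic nephropathy (HN), a kidney injury under a raised uric acid load, and of pectolinarigenin (PEC), a plant flavonoid given against it. They are a list of names, 9 of the 55385 genes in the deposited table. Scnn1a, Scnn1b and Scnn1g encode the alpha, beta and gamma subunits of the epithelial sodium channel, Nr3c2 the mineralocorticoid receptor, Hsd11b2 the enzyme that inactivates corticosterone, Sgk1 a kinase, Nedd4l a ubiquitin ligase, Tsc22d3 a transcriptional regulator and Fxyd4 a small regulator of the sodium pump. Poly(A) RNA of whole kidney was sequenced from 3 Control, 3 HN and 3 PEC mice, with 1 library per mouse. All were male C57BL/6J mice aged 8 to 10 weeks, whose labels give the strain as C57BL/6. HN mice received potassium oxonate at 2.4 g/kg and adenine at 0.16 g/kg on alternate days over 4 weeks. PEC mice received the same agents and, by mouth each day of those 4 weeks, PEC at 25 mg/kg. The labels carry no dose, the PEC dose is the one a figure legend of the study gives for the sequenced group, and the titles of the Control samples contain the words HN mice although their disease state is control. Values are given throughout in the order of the replicate numbers, which are 2, 4, 5 for Control, 4, 8, 12 for HN and 1, 2, 3 for PEC.

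In the kidney, principal cells of the collecting duct take up sodium through the epithelial sodium channel at their luminal side, and the sodium pump moves it on at the basolateral side. Aldosterone enters these cells and binds the mineralocorticoid receptor, which corticosterone would also occupy if Hsd11b2 did not convert it. Among the genes the receptor is known to raise are Scnn1a, Sgk1, Tsc22d3 and Fxyd4, and the kinase Sgk1 phosphorylates the ligase Nedd4l, which otherwise marks the channel for removal from the membrane.

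Total counts on genes of a library lay between 57714111 and 81069646 (median 74397038), and each of the 9 genes had at least 686 counts in every library. Levels are given as TMM-scaled FPKM, which are the deposited FPKM (fragments per kilobase, relative to a library's total count) rescaled to the library sizes that the test uses, with the mean ± SD over the 3 libraries of a group. Tests are edgeR's quasi-likelihood tests on the counts of all 9 libraries, and adjusted p-values are Benjamini-Hochberg values over the 21392 genes tested. A gene is said to rise or fall where its adjusted p was at most 0.05. All 9 genes passed the filter on low counts. Replicates of a group differed by more than counting error (chi-square per degree of freedom from 70.6 to 239), so that none was a copy of another.

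The libraries differed in composition by group. Mitochondrially encoded genes took 14.2 ± 1.82% of the counts of Control libraries, 6.19 ± 0.164% of HN libraries and 12.3 ± 1.77% of PEC libraries. TMM factors, which correct for such differences, were 0.778 to 0.832 in Control libraries, 1.15 to 1.22 in HN libraries and 1.02 to 1.05 in PEC libraries. If total counts are used in place of TMM, the median log2 fold change of all tested genes moves by 0.557 in HN against Control, by -0.199 in PEC against HN and by 0.358 in PEC against Control. Of the genes called in HN against Control, 50.5% were higher in HN mice with TMM and 85.0% with total counts. In PEC against HN the share that was higher was 47.1% with TMM, 30.0% with total counts and 58.5% with upper-quartile factors. In PEC against Control it was 49.3%, 73.3% and 60.6%. limma on log2(FPKM + 1), which keeps the deposited scaling, gave 83.8%, 30.6% and 70.5% in the 3 comparisons. Directions in all 3 comparisons are therefore relative to the scaling. Annotated ribosomal RNA loci took 0.117, 0.682 and 0.119% of the counts in PEC libraries and 0.00163 to 0.00284% in the other 6, so that all PEC libraries stood apart from Control and HN. With these loci and the mitochondrial genes removed, the same of the 9 genes passed the test in each comparison. Whether the PEC libraries also differed from the others in preparation was not tested.

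**Figure D1:**
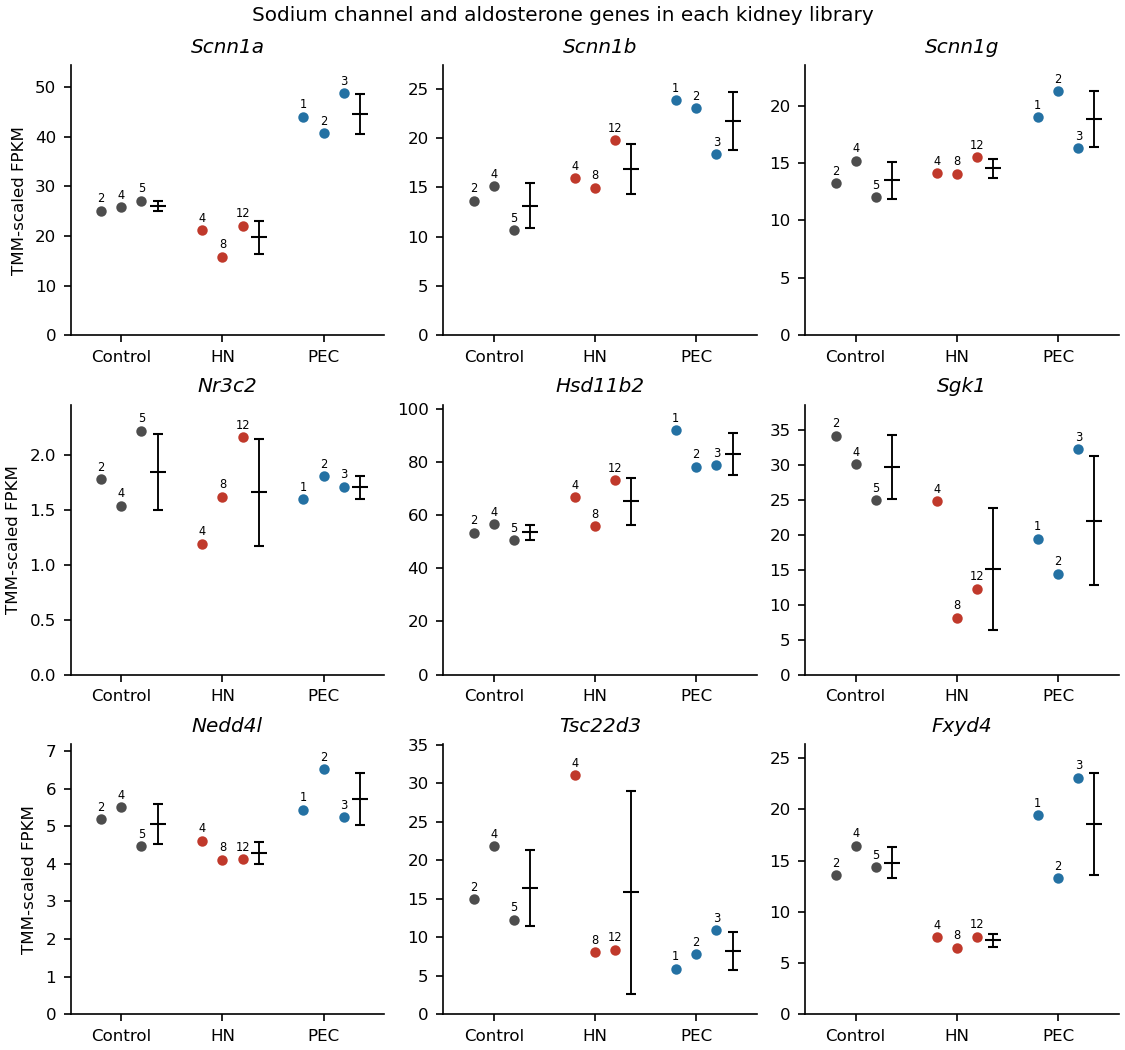
Level of each of the 9 genes (TMM-scaled FPKM, vertical axis from 0) in each library of Control, HN and PEC mice, with the replicate number at each point and the mean ± SD beside the points. Scnn1a lay between 40.7 and 48.7 in PEC and at most 27.1 in every other library, Fxyd4 between 6.48 and 7.57 in HN, and Tsc22d3 at 31.0 in HN 4 alone among the HN libraries, next to 8.06 and 8.38.

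By mean level per length over the 9 libraries, Hsd11b2 was the most abundant of the genes at 67.2 TMM-scaled FPKM. Scnn1a followed with 30.0, Sgk1 with 22.3, Scnn1b with 17.3, Scnn1g with 15.6, Fxyd4 with 13.5, Tsc22d3 with 13.4, Nedd4l with 5.02 and Nr3c2 with 1.74. Hsd11b2 lay above every other member in each library and Nr3c2 below every other one. Among the neighbours in between, the ranges over the libraries overlapped for each pair from Scnn1a down to Nedd4l.

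In HN against Control mice, Fxyd4 fell to less than its level in any Control library, and Scnn1a fell by a smaller amount that held only with some scalings. The other 7 genes did not pass the test. Thus 2 of the 9 genes were lower, where 20.7% of all tested genes were, and 0 were higher, where 21.1% of all tested genes were. A share of 2 in 9 is close to that background and is not a result about these genes. For the count of 0 from edgeR, 2 of the 9 were higher at an unadjusted p of at most 0.05 (24.7% of all genes). With DESeq2 the count was 1 (5116 of 21392 genes), and with limma on log2(FPKM + 1) it was 3 (9531 of 21392). None of these counts exceeds the share of all genes. With total counts, 4 were higher (Scnn1b, Scnn1g, Hsd11b2 and Nedd4l, against 45.1% of all genes) and 0 lower (against 7.97%). The count lower was 1, Fxyd4 alone, without Control 2, Control 4, Control 5, HN 8 or PEC 1, and 3 without HN 4, while the count higher was 1, Hsd11b2, without HN 8. In the fits with 1 lower, 3583 to 4253 of 22159 to 22315 genes were lower. Without HN 4, 3857 of 22246 genes were lower, and without HN 8, 3785 of 22159 were higher.

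In PEC against HN mice, 5 of the 9 genes rose, against 18.3% of all tested genes. They were Scnn1a, Scnn1g, Hsd11b2, Nedd4l and Fxyd4, and Scnn1a and Fxyd4 had the largest fold changes. The count was 2 without HN 8 (Scnn1a and Fxyd4), where 2972 of 22159 genes rose, and 3 without PEC 1 (these and Nedd4l), where 3078 of 22163 did. With all 9 libraries 3923 of 21392 genes rose, so that both the count of the 9 genes and that of all genes depend on single libraries. None fell, where 20.6% of all tested genes did. The count in edgeR was 0 at an unadjusted p as well (25.1% of all genes) and with total counts (28.2% of all genes). It was also 0 with DESeq2 and with limma on log2(FPKM + 1), where 4994 and 6998 of 21392 genes fell. With total counts 2 of the 9 rose, Scnn1a and Fxyd4, against 12.1% of all genes.

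In PEC against Control mice, 4 of the 9 genes rose, the 3 subunits of the channel and Hsd11b2, against 22.9% of all tested genes. With total counts 6 of the 9 rose, these and Nedd4l and Fxyd4, against 36.4% of all genes. None fell, where 23.5% of all tested genes did. That edgeR count was also 0 at an unadjusted p (26.7% of all genes) and with total counts (13.3% of all genes), but 1, Tsc22d3, without HN 4 (4916 of 22246 genes). It was 0 as well with DESeq2 and with limma on log2(FPKM + 1), where 5314 and 3064 of 21392 genes fell. Each pair of comparisons shares the 3 libraries of a group, so that their values are given side by side and not as repeats of each other.

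**Figure D2:**
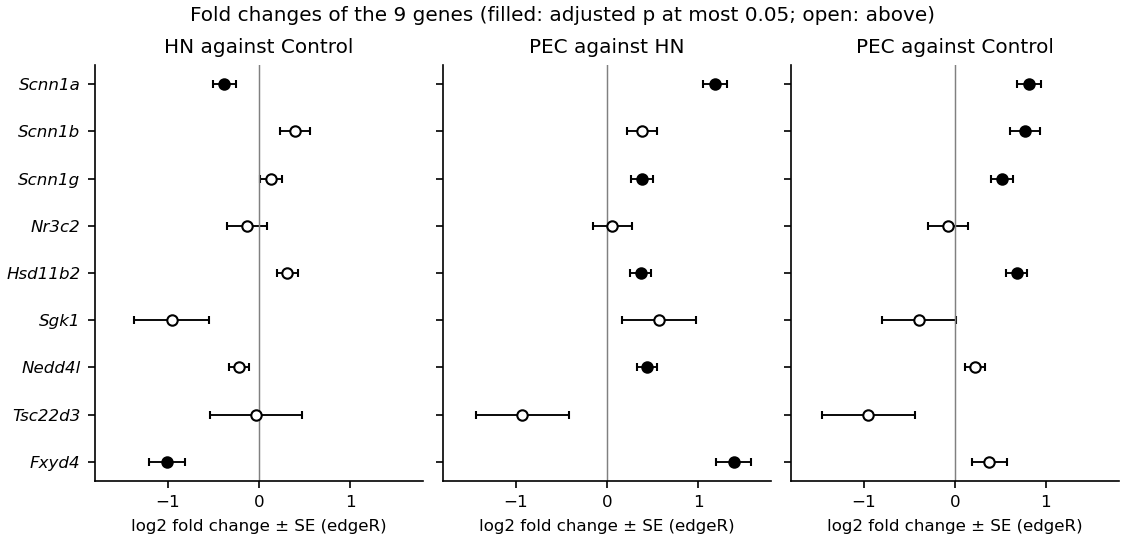
Log2 fold change ± SE of the 9 genes in the 3 comparisons (edgeR, horizontal axis), filled where the adjusted p was at most 0.05 and open where it was above. Scnn1a (1.19) and Fxyd4 (1.39) lay farthest to the right in PEC against HN, while Scnn1a in HN against Control (-0.38) turned to 0.18 with total counts and 0.14 with limma on log2(FPKM + 1).

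Scnn1a (ENSMUSG00000030340) lies on chromosome 6 of GRCm38 from 125320659 to 125344933. Its level was 25.1, 25.8 and 27.1 TMM-scaled FPKM in Control libraries, 21.2, 15.8 and 22.1 in HN libraries and 44.0, 40.7 and 48.7 in PEC libraries, with means of 26.0 ± 1.01, 19.7 ± 3.39 and 44.4 ± 4.03. The PEC libraries were the highest, the HN libraries the lowest, and no group overlapped another on this scale. With PEC it rose 2.29-fold over HN (log2 fold change 1.19, SE 0.133, edgeR adjusted p = 0.000203), and this rise passed the test in all 20 alternatives, between 0.96 and 1.32. Over Control it rose by 0.82 on the log2 scale (edgeR adjusted p = 0.000945), again in all 20 alternatives. Between HN and Control it fell by 0.38 on the log2 scale (SE 0.131, edgeR adjusted p = 0.045), but passed in 6 of 20 alternatives, which ran from -0.65 to 0.18 with adjusted p from 0.0027 to 0.393, and turned upward with total counts and with both limma fits. As deposited, scaled by total counts, the FPKM was 21.02 ± 0.481 in Control and 23.4 ± 4.07 in HN mice. The fall did not pass the test without Control 2 (edgeR adjusted p = 0.0804), Control 4 (0.0976), Control 5 (0.112), HN 4 (0.0638), HN 8 (0.122) or PEC 1 (0.0655).

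Scnn1b (ENSMUSG00000030873, chromosome 7, 121865038 to 121918514) and Scnn1g (ENSMUSG00000000216, chromosome 7, 121734479 to 121768475) lie 96.6 kb apart on the same strand. Scnn1b was at 13.7, 15.1 and 10.7 TMM-scaled FPKM in Control libraries, 16.0, 15.0 and 19.8 in HN libraries and 23.8, 23.0 and 18.4 in PEC libraries, with means of 13.1 ± 2.27, 16.9 ± 2.53 and 21.7 ± 2.93. Every PEC library lay above every Control library, whereas HN overlapped both. Its rise in PEC against Control was 0.77 on the log2 scale (SE 0.166, edgeR adjusted p = 0.00459), passing in 19 of 20 alternatives and not with length and GC content removed (0.40, edgeR adjusted p = 0.0744, range over the alternatives 7.65e-05 to 0.0744). The steps from Control to HN (0.39, edgeR adjusted p = 0.0909) and from HN to PEC (0.38, edgeR adjusted p = 0.0986) each missed the threshold. The step to HN passed in 4 of 20 alternatives, which ran from 0.22 to 0.94, namely total counts (0.94, edgeR adjusted p = 0.00214, range over the alternatives 0.00214 to 0.323), both limma fits and a mean FPKM of at least 1. The step from HN to PEC passed in 2, upper-quartile factors and without PEC 3 (0.51, edgeR adjusted p = 0.0469, range over the alternatives 0.0397 to 0.489). The gene overlaps Cog7 on the opposite strand, which had 1802 to 3900 counts, and since the strand setting of the counting is not given in the sources used here, reads of the pair may not be separated.

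Scnn1g was at 13.3, 15.2 and 12 TMM-scaled FPKM in Control libraries, 14.1, 14.1 and 15.5 in HN libraries and 19.0, 21.2 and 16.3 in PEC libraries, with means of 13.5 ± 1.61, 14.6 ± 0.826 and 18.8 ± 2.46. Control and HN overlapped, and all PEC libraries lay above both. It rose by 0.52 on the log2 scale in PEC against Control (SE 0.121, edgeR adjusted p = 0.00658, passing in all 20 alternatives). Against HN it rose by 0.39 (SE 0.121, edgeR adjusted p = 0.0309), which passed in 10 of 20 alternatives with adjusted p from 0.0106 to 0.336 and not with total counts (0.19) or with length and GC content removed (0.27). That rise did not pass without HN 4 (edgeR adjusted p = 0.0995), HN 8 (0.101), PEC 1 (0.0833) or PEC 2 (0.104). Between HN and Control its log2 fold change was 0.13 (edgeR adjusted p = 0.419), but it passed in 3 of 20 alternatives, with total counts (0.69, edgeR adjusted p = 0.00221, range over the alternatives 0.00221 to 0.78) and both limma fits (0.63 and 0.67).

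The balance of the subunits was compared as log2 ratios of FPKM within a library, which do not depend on the scaling of libraries. Scnn1b to Scnn1a was -0.88, -0.77 and -1.35 in Control libraries, -0.41, -0.08 and -0.16 in HN libraries and -0.88, -0.82 and -1.40 in PEC libraries. All HN ratios lay above all Control and PEC ratios, and Control and PEC overlapped. The means differed by 0.79 between HN and Control and by -0.82 between PEC and HN (exact permutation test, two-sided, p = 0.1 each, the smallest that 3 against 3 libraries allow). Scnn1g to Scnn1a was -0.92, -0.77 and -1.17 in Control libraries, -0.59, -0.17 and -0.51 in HN libraries and -1.21, -0.94 and -1.58 in PEC libraries. Here too the HN ratios were all the highest, with differences of 0.53 and -0.82 (exact permutation test, two-sided, p = 0.1 each). So relative to Scnn1a, the beta and gamma subunits stood higher in HN libraries than in the others, with each library left out in turn by 0.61 to 0.90 and 0.41 to 0.63 against Control.

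**Figure D3:**
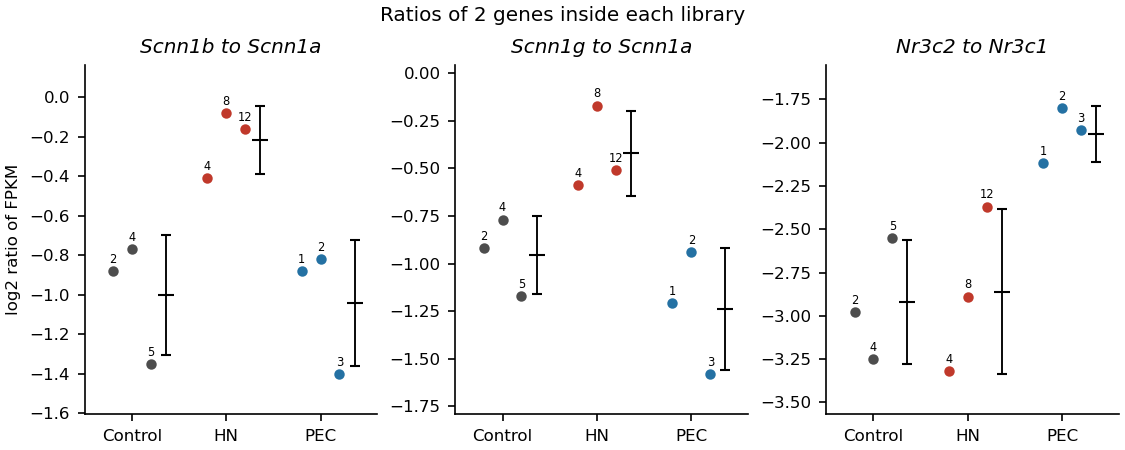
Log2 ratio of FPKM of Scnn1b to Scnn1a, Scnn1g to Scnn1a and Nr3c2 to Nr3c1 in each library, with the mean ± SD beside the points. The HN ratios of the subunits all lay above those of the other groups (means -0.21 and -0.42), and the PEC ratios of the receptors (mean -1.95) above those of Control and HN.

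Hsd11b2 (ENSMUSG00000031891, chromosome 8, 105518755 to 105523988) was at 53.4, 56.4 and 50.5 TMM-scaled FPKM in Control libraries, 66.7, 55.7 and 73.0 in HN libraries and 91.8, 78.1 and 78.8 in PEC libraries. The means were 53.4 ± 2.95, 65.1 ± 8.76 and 82.9 ± 7.73. PEC lay above both other groups without overlap, while HN 8 lay among the Control libraries. In PEC against Control it rose by 0.68 on the log2 scale (SE 0.118, edgeR adjusted p = 0.00145), passing in 19 of 20 alternatives and not with length and GC content removed (0.27, edgeR adjusted p = 0.0691, range over the alternatives 1.16e-06 to 0.0691). Its rise in PEC against HN was 0.37 (edgeR adjusted p = 0.0347) and passed in 8 of 20 alternatives, with adjusted p from 0.0101 to 0.435, and not with total counts (0.17) or with length and GC content removed (0.12). It was lost without Control 2 (edgeR adjusted p = 0.0549), Control 4 (0.0508), HN 4 (0.0817), HN 8 (0.124) or PEC 1 (0.130). In HN against Control the log2 fold change was 0.31 (edgeR adjusted p = 0.0623), and it passed in 8 of 20 alternatives, among them the fit without HN 8 (0.41, edgeR adjusted p = 0.0222, range over the alternatives 0.000482 to 0.294).

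Nr3c2 (ENSMUSG00000031618, chromosome 8, 76899442 to 77245012) was the least abundant member, with 1.78, 1.54 and 2.23 TMM-scaled FPKM in Control libraries, 1.19, 1.62 and 2.17 in HN libraries and 1.60, 1.81 and 1.71 in PEC libraries. The 3 groups overlapped throughout. Its log2 fold changes were -0.13, 0.06 and -0.07 in HN against Control, in PEC against HN and lastly in PEC against Control (edgeR adjusted p = 0.677, 0.859 and 0.808), with signs that turned with total counts in each comparison, and 0 of 20 alternatives passed in any of them. The glucocorticoid receptor Nr3c1, which binds the same steroids, was at 14.1, 14.7 and 13.0 TMM-scaled FPKM in Control libraries, 11.9, 12.04 and 11.2 in HN libraries and 6.95, 6.29 and 6.504 in PEC libraries. Nr3c1 was lowest in PEC without overlap. It fell by 0.82 on the log2 scale in PEC against HN (edgeR adjusted p = 0.000129) and by 1.04 against Control (2.22e-05), both with every scaling, while in HN against Control its -0.22 (edgeR adjusted p = 0.0565) turned to 0.33 with total counts.

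The log2 ratio of Nr3c2 to Nr3c1 was -2.98, -3.25 and -2.55 in Control libraries, -3.32, -2.89 and -2.37 in HN libraries and -2.12, -1.8 and -1.93 in PEC libraries. All PEC ratios were above all others, by 0.92 over HN (exact permutation test, two-sided, p = 0.1, the smallest possible). Between HN and Control it differed by 0.06 (exact permutation test, two-sided, p = 0.8), which became -0.18 without HN 12 and -0.10 without Control 4. For Hsd11b2 to Nr3c2 the mean log2 ratio was 4.87 ± 0.347 in Control mice, 5.33 ± 0.413 in HN mice and 5.60 ± 0.217 in PEC mice, with overlap and an exact two-sided permutation p of 0.3 in both comparisons. The 0.27 between PEC and HN mice turned to -0.10 with length and GC content removed. Hsd11b1, the enzyme that regenerates corticosterone, fell in HN against Control by 1.28 on the log2 scale (edgeR adjusted p = 0.0018), from 27.4 ± 10.4 to 11.1 ± 1.23 TMM-scaled FPKM, and was at 14.0 ± 1.55 in PEC mice. Its 0.36 in PEC against HN did not pass (edgeR adjusted p = 0.245).

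Sgk1 (ENSMUSG00000019970, chromosome 10, 21882184 to 21999893), the kinase through which aldosterone acts early on the channel, was at 34.2, 30.1 and 24.99 TMM-scaled FPKM in Control libraries, 24.81, 8.16 and 12.3 in HN libraries and 19.4, 14.5 and 32.2 in PEC libraries. HN 8 and HN 12 were the lowest of all, HN 4 lay just under the lowest Control library, and PEC overlapped both groups. The means were 29.7 ± 4.59, 15.1 ± 8.67 and 22.0 ± 9.17. None of its log2 fold changes passed with edgeR on all 9 libraries, at -0.96 in HN against Control (SE 0.408, edgeR adjusted p = 0.0911), 0.57 in PEC against HN (0.301) and -0.39 in PEC against Control (0.464). In HN against Control it passed with DESeq2 on all 9 libraries (-0.94, DESeq2 adjusted p = 0.0346), and 3 of 20 alternatives passed in all. Without HN 4 the fold changes against Control and of PEC against HN became -1.51 (edgeR adjusted p = 0.0119, range over the alternatives 0.00647 to 0.408) and 1.12 (0.0442, range 0.0177 to 0.719), and both then passed.

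Tsc22d3 (ENSMUSG00000031431, chromosome X, 140539528 to 140600659), a leucine zipper protein induced by corticosteroids, was at 14.9, 21.8 and 12.3 TMM-scaled FPKM in Control libraries, 31.0, 8.06 and 8.38 in HN libraries and 5.89, 7.80 and 10.9 in PEC libraries. HN 4 was the highest of all 9 libraries and the other HN libraries lay below every Control library, while each PEC library lay below each Control one. The log2 fold changes were -0.03 in HN against Control (SE 0.505, edgeR adjusted p = 0.975), -0.93 in PEC against HN (0.183) and -0.95 in PEC against Control (0.156). Without HN 4 they were -0.96 (edgeR adjusted p = 0.0412, range over the alternatives 0.0412 to 1), 0.00 (0.998, range 0.0979 to 0.998) and -0.96 (0.0207, range 0.0207 to 0.368). HN 4 was also the highest HN library for 16 of 18 other corticosteroid-responsive genes, as it was for 39.5% of all tested genes, while Ndrg2 and Pik3r1 were highest in HN 12. This was not particular to that list. HN 4 was likewise highest for 13 of 16 genes of the steroid receptor pathway and 16 of 28 that cleave, ubiquitinate or traffic the channel. Of the 16 corticosteroid-responsive genes, 4 with wide gaps are shown for HN 4, a choice made after their values had been seen. Per1, Zbtb16 and Fkbp5 were already among the counterparts set by name, and Cebpd had the largest change of its list in PEC against HN. In HN 4, Per1 was at 11.0 against 3.23 and 5.37 TMM-scaled FPKM, Zbtb16 at 7.24 against 1.51 and 0.744, Fkbp5 at 23.7 against 14.4 and 9.36 and Cebpd at 32.7 against 12.1 and 12.2. Whether these values of HN 4 have a source in common was not tested.

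**Figure D4:**
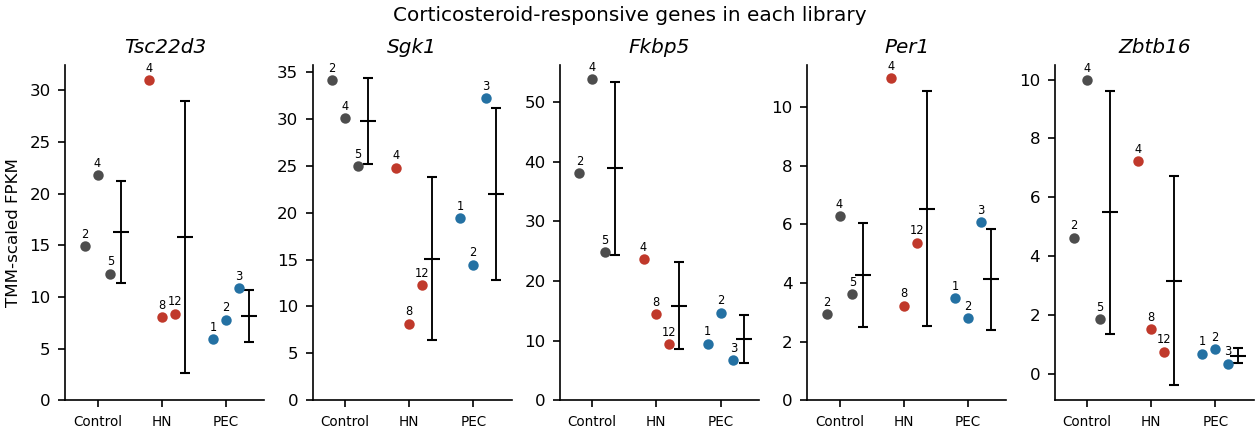
Levels of 5 corticosteroid-responsive genes (TMM-scaled FPKM, vertical axis) in each library, with the replicate number at each point and the mean ± SD beside the points. HN 4 stood above HN 8 and HN 12 for Tsc22d3 (31.0 against 8.06 and 8.38), Per1 (11.0 against 3.23 and 5.37) and Zbtb16 (7.24 against 1.51 and 0.744).

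Because Sgk1 and Tsc22d3 are known receptor targets, promoters were searched on both strands for the inverted repeat that steroid receptors recognise, spelled as GNACA and TGTNC with 3 bases between them, and for the arm TGTTCT, a search chosen after the values had been seen. RefSeq windows of 300 bases on GRCm38.p6, from 250 before to 50 after a start, were searched for 6 of the 9 genes. These were Fxyd4, Scnn1g, Scnn1b, Nr3c2, Sgk1 and Tsc22d3, with 13 windows. Scnn1a and Hsd11b2 had no window. Nedd4l was left out of the search, so that its promoter was not tested. Among the 13 windows, the repeat was in 1 window, at a start of Sgk1, where 0.475% of all 32851 windows held it. The window at chr10:21993694-21993722 on the plus strand is shown because it is that match, with the repeat in capitals, 188 bases before the start.
Sgk1: tgcggaaaGAACAGAATGTTCtcggagat
The arm, which overlaps the repeat, was in 3 of 6 Sgk1 windows and 1 of 3 Tsc22d3 windows, and in none of those of Fxyd4, Scnn1g, Scnn1b and Nr3c2, which is 4 of 13 windows, against 19.0% of all windows. A match describes the letters of the window and is not evidence of binding.

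Nedd4l (ENSMUSG00000024589, chromosome 18, 64887705 to 65215069) was at 5.18, 5.51 and 4.46 TMM-scaled FPKM in Control libraries, 4.61, 4.11 and 4.12 in HN libraries and 5.44, 6.52 and 5.23 in PEC libraries. PEC lay above HN without overlap, and Control overlapped both. It rose in PEC against HN by 0.44 on the log2 scale (SE 0.11, edgeR adjusted p = 0.0124), passing in 16 of 20 alternatives, which ran from 0.18 to 0.85, and not with total counts (0.24), with both limma fits (0.18 and 0.21) or without HN 8 (0.40, edgeR adjusted p = 0.0522, range over the alternatives 0.000432 to 0.193). In HN against Control its -0.22 (edgeR adjusted p = 0.15) turned to 0.34 with total counts. Against Control, its 0.22 in PEC mice did not pass (edgeR adjusted p = 0.131), but did in 6 of 20 alternatives, among them total counts (0.57, edgeR adjusted p = 0.00306, range over the alternatives 0.00306 to 0.386). Antisense genes within it had at most 56 counts. Its close relative Nedd4 was at 15.8, 16.7 and 15.1 TMM-scaled FPKM in Control libraries, 26.7, 23.1 and 23.4 in HN libraries and 4.25, 6.05 and 3.72 in PEC libraries. No group of Nedd4 overlapped another, with HN the highest and PEC the lowest. Nedd4 rose by 0.64 on the log2 scale in HN against Control (edgeR adjusted p = 0.00899) and fell by 2.37 in PEC against HN (2.91e-05), both with every scaling. In PEC against HN, Nedd4l thus rose where Nedd4 fell. Per length, Nedd4 stood at 4.67 ± 1.22 beside 5.73 ± 0.693 for Nedd4l in PEC mice, and at 15.9 ± 0.773 beside 5.05 ± 0.535 in Control mice.

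Fxyd4 (ENSMUSG00000004988, chromosome 6, 117933559 to 117937692), a corticosteroid-induced partner of the sodium pump, lies 7.38 Mb from Scnn1a. Its level was 13.6, 16.5 and 14.3 TMM-scaled FPKM in Control libraries, 7.53, 6.48 and 7.57 in HN libraries and 19.4, 13.3 and 23.1 in PEC libraries, with means of 14.8 ± 1.49, 7.20 ± 0.616 and 18.6 ± 4.97. The HN libraries were all below all others, and PEC overlapped Control. It fell by 1.01 on the log2 scale in HN against Control (SE 0.193, edgeR adjusted p = 0.00251), keeping its direction in all 20 alternatives (-1.07 to -0.44) and passing in 17, the exceptions being total counts (-0.46, edgeR adjusted p = 0.0846) and both limma fits (adjusted p = 0.0782 and 0.0683). With PEC it rose 2.62-fold over HN (log2 fold change 1.39, SE 0.195, edgeR adjusted p = 0.000638), in all 20 alternatives between 1.05 and 1.61. Against Control its 0.38 did not pass (edgeR adjusted p = 0.139), except without PEC 2 (0.57, edgeR adjusted p = 0.00895, range over the alternatives 0.00895 to 0.698) and in 5 other alternatives.

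Fxyd2, the main kidney regulator, was at 299, 356 and 380 TMM-scaled FPKM in Control libraries, 137, 122 and 136 in HN libraries and 390.3, 300.3 and 264 in PEC libraries. It fell by 1.37 on the log2 scale in HN against Control and rose by 1.30 in PEC against HN (edgeR adjusted p = 0.00012 and 0.00029), with every scaling. The pump's beta subunit Atp1b1 fell in HN against Control by 0.70 on the log2 scale (edgeR adjusted p = 0.00154), which was -0.15 with total counts and passed in 3 of 6 scalings or tests. Its 0.29 in PEC against HN did not pass (edgeR adjusted p = 0.0903). For the lists of genes that follow, the shares of all tested genes are 21.1% higher and 20.7% lower in HN against Control (45.1% and 7.97% with total counts) and 18.3% and 20.6% in PEC against HN (12.1% and 28.2%), and the median log2 fold changes of all genes with total counts are 0.56 and -0.21. Of the 12 genes of the pump and FXYD family (without Fxyd4), 5 rose and 3 fell in HN against Control (7 and 1 with total counts), the latter near the share of all genes, with a median log2 fold change of 1.09 where that of all genes was 0.00. With PEC, 1 rose and 1 fell against HN (1 and 2 with total counts), with a median of 0.25 where all genes had -0.02.

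Of the 28 genes that cleave, ubiquitinate or traffic the channel, 6 were higher in HN than in Control mice and 11 lower (12 and 4 with total counts). The count of 6 is at the 21.1% of all genes that were higher, where 20.7% were lower, and the median log2 fold change of -0.30, where all genes had 0.00, turned to 0.26 with total counts. With PEC, 7 were higher and 6 lower than in HN mice (3 and 11 with total counts), with a median of 0.12 where all genes had -0.02, which turned to -0.08 with total counts. The most abundant, Prss8, is a protease that cleaves the gamma subunit, and stood at 158, 190.3 and 213 TMM-scaled FPKM in Control libraries, 65.6, 35.5 and 78.0 in HN libraries and 112, 113 and 96.0 in PEC libraries. The groups did not overlap. Prss8 fell by 1.62 on the log2 scale in HN against Control (edgeR adjusted p = 0.000807) and rose by 0.86 in PEC against HN (0.0239), the latter not with total counts (0.66, edgeR adjusted p = 0.0605) or without HN 4, PEC 1 or PEC 2. The kinase Sgk2 fell by 2.18 and rose by 1.40 in these comparisons (edgeR adjusted p = 2.08e-06 and 3.86e-05), from 48.8 ± 1.62 over 10.6 ± 0.506 to 27.7 ± 4.10 TMM-scaled FPKM. Sgk3 fell in PEC against HN by 0.69 (edgeR adjusted p = 0.0142), although 1 of 6 scalings or tests gave the other sign and the call was lost without HN 4. The protease Tmprss4 was scarce, at 0.257, 0.241 and 0.309 TMM-scaled FPKM in Control libraries and 0.793, 0.673 and 0.703 in HN libraries. It rose by 1.43 in HN against Control (edgeR adjusted p = 0.0233), not without Control 2, Control 4, HN 4 or HN 12. The deubiquitinase Usp2 fell by 1.10 in HN against Control (edgeR adjusted p = 0.00742) but not with total counts (-0.55, 0.0876), and the scaffold Cnksr3 rose by 0.63 (0.00681) and fell by 0.99 in PEC against HN (0.000835).

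Among 16 genes of the mineralocorticoid and glucocorticoid receptor pathway, 2 were higher in HN than in Control mice and 8 lower (7 and 1 with total counts), and 1 was higher and 6 lower in PEC than in HN mice (0 and 9). In HN against Control, 21.1% of all genes were higher and 20.7% lower (45.1% and 7.97% with total counts), so that with total counts the 7 are at the share of all genes. The median log2 fold changes were -0.34 and -0.30, where those of all genes were 0.00 and -0.02, and the former turned to 0.22 with total counts. HN 4 stood apart here too, as the highest HN library for 13 of the 16 (39.5% of all tested genes). The coactivator Ncoa2 was at 4.25, 4.43 and 4.05 TMM-scaled FPKM in HN libraries and at 2.30, 0.705 and 0.459 in PEC libraries. It fell by 1.85 on the log2 scale (edgeR adjusted p = 0.016), a call that was lost without PEC 2. The chaperone Hsp90ab1, the most abundant of them, fell by 0.49 in HN against Control with TMM (edgeR adjusted p = 0.0475) and in 2 of 9 fits with a library left out, and was at 0.06 there with total counts. Its 0.21 in PEC against HN did not pass (edgeR adjusted p = 0.386).

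Of 18 genes known to respond to corticosteroids, 8 were higher in HN than in Control mice and 6 lower (9 and 1 with total counts), and 1 was higher and 8 lower in PEC than in HN mice (1 and 10), with medians of 0.55 and -0.83 on the log2 scale, where all genes had 0.00 and -0.02. The 9 and 1 with total counts are near the 45.1% and 7.97% of all genes. HN 4 was the highest HN library for 16 of the 18, as for 39.5% of all tested genes, so that it stood apart in this list. Fkbp5 was at 38.1, 53.8 and 24.8 TMM-scaled FPKM in Control libraries, 23.7, 14.4 and 9.36 in HN libraries and 9.50, 14.7 and 6.68 in PEC libraries. It fell by 1.28 on the log2 scale in HN against Control (edgeR adjusted p = 0.0311), in 3 of 6 scalings or tests and not without Control 2, Control 4, HN 8 or HN 12, and by 1.88 in PEC against Control (0.005). Ndrg2 fell by 1.28 in HN against Control and rose by 1.33 in PEC against HN (edgeR adjusted p = 2.7e-05 and 5.9e-05). Lcn2, also a marker of tubular injury, rose by 6.28 in HN against Control (edgeR adjusted p = 2.69e-05), from 1.65 ± 0.785 to 127 ± 22.9 TMM-scaled FPKM, and was at 121 ± 70.7 in PEC mice. The transcription factor Cebpd rose by 2.74 in HN against Control and fell by 2.38 in PEC against HN (edgeR adjusted p = 0.00121 and 0.0032).

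The other markers of principal cells were compared beside the channel. Of 18 such markers, 5 were higher in HN than in Control mice and 5 lower (8 and 4 with total counts), 8 higher and 0 lower in PEC than in HN mice (6 and 0), and 10 higher and 3 lower in PEC than in Control mice (11 and 0). Both counts in HN against Control are near those of all genes (21.1% higher and 20.7% lower), as are the 8 higher with total counts (45.1%). The 4 lower with total counts stood above the 7.97% of all genes. In PEC against Control the shares of all genes were 22.9% higher and 23.5% lower (36.4% and 13.3% with total counts), so that the 3 lower are no more than that background. Their median log2 fold changes were -0.15, 0.47 and 0.53, where those of all genes were 0.00, -0.02 and 0.04, and the -0.15 turned to 0.41 with total counts. Their summed level was 846, 887 and 589 TMM-scaled FPKM in Control libraries, 748, 606 and 693 in HN libraries and 819, 802 and 883 in PEC libraries. Aqp2, the most abundant of them, made up much of the spread in Control libraries, with 332, 371 and 156 against 123, 71.7 and 109 in HN libraries and 123, 117 and 179 in PEC libraries. Without Aqp2 the sums were 514, 516 and 433 in Control libraries, 626, 535 and 585 in HN libraries and 696, 686 and 704 in PEC libraries. The place of HN in this order turned with the keratins Krt8 and Krt18, which were singled out after their values were seen. Without them and Aqp2, the sums of 15 markers were 371, 383 and 367 in Control libraries, 339, 277 and 327 in HN libraries and 429.9, 416 and 418 in PEC libraries, with HN below Control and PEC above both. The place of PEC above Control in the sums of 15 markers rested on Tmem213, also singled out after its values were seen. Tmem213 was at 71.3, 70.5 and 75.7 TMM-scaled FPKM in Control libraries, 69.5, 57.4 and 69.5 in HN libraries and 134.5, 110.4 and 118 in PEC libraries. With Tmem213 left out as well, the Control and PEC sums overlapped and HN lay below both. In bulk tissue, fewer cells of a type and less RNA per cell cannot be told apart, and the part of the cell makeup in the rise of the channel genes was not tested. No marker of this list was at 0 in any library.

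Single markers of principal cells went different ways in HN mice. Aqp2 and Aqp4, the water channels, fell by 1.48 and 2.14 on the log2 scale in HN against Control (edgeR adjusted p = 0.00638 and 0.000671, in 4 and 6 of 6 scalings or tests), whereas the keratin Krt18 rose by 1.48 (0.00549). In PEC against HN, Aqp4 rose by 1.36 (edgeR adjusted p = 0.00868), Hoxd3 by 1.42 (0.00286) and the vasopressin receptor Avpr2 by 0.79 (0.00548), while the 0.48 of Aqp2 did not pass (0.279). The potassium channel Kcnj1 fell by 0.94 in HN against Control (edgeR adjusted p = 0.000283). The mean log2 level of the 3 subunits over that of the 18 markers was 0.18, 0.17 and 0.18 in Control libraries, 0.26, 0.32 and 0.37 in HN libraries and 0.47, 0.55 and 0.18 in PEC libraries. HN lay above Control, by 0.14 (exact permutation test, two-sided, p = 0.1, the smallest possible), and PEC overlapped both, with a difference of 0.08 from HN (exact permutation p = 0.5), which was 0.01 without PEC 2 and 0.19 without PEC 3. This ratio hung on the markers used, since against Aqp2 alone the difference between HN and Control was 1.47, and against Avpr2 alone 0.50. For PEC against HN it was -0.10 against Aqp3 alone and -0.13 against Avpr2 alone.

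Markers of neighbouring tubule cells were counted in the same way. Of 12 intercalated cell markers, 2 were higher in HN than in Control mice and 8 lower (2 and 5 with total counts) and 8 higher and 0 lower in PEC than in HN mice (8 and 1). Their summed level was 142, 146 and 139.6 TMM-scaled FPKM in Control libraries, 97.5, 88.9 and 99.1 in HN libraries and 166, 156 and 158 in PEC libraries. HN lay below Control and PEC above it, with median log2 fold changes of -0.71 in HN against Control and 0.90 in PEC against HN, where all genes had 0.00 and -0.02. Their most abundant gene, the proton pump subunit Atp6v1g3, fell by 0.62 on the log2 scale in HN against Control (-0.06 with total counts) and rose by 1.11 in PEC against HN (edgeR adjusted p = 0.00165 and 0.000116), and the anion exchanger Slc4a1 fell by 2.26 and rose by 1.37. Of 16 markers of the distal convoluted tubule and thick limb, 1 was higher in HN than in Control mice and 9 lower (4 and 6 with total counts) and 8 higher and 0 lower in PEC than in HN mice (7 and 2), with medians of -0.85 and 0.57. Umod, their most abundant gene, was at 1085 ± 48.3, 1121 ± 83.2 and 1112 ± 75.1 TMM-scaled FPKM in Control mice, then HN and PEC mice, and their sums were 2027, 2020 and 2111 in Control libraries, 1612, 1386 and 1525 in HN libraries and 1687, 1771 and 1685 in PEC libraries. Without Umod the sums were 995, 893 and 1015 in Control libraries, 404.5, 344 and 411 in HN libraries and 577, 583 and 646 in PEC libraries. Pvalb, a marker of the distal convoluted tubule, fell by 5.73 in HN against Control and rose by 3.90 in PEC against HN (edgeR adjusted p = 0.000196 and 0.00174). No gene of either list was at 0 in any library, and the part of these cells in the results was not tested.

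In the proximal tubule, which lies upstream, 0 of 14 markers were higher and 13 lower in HN mice than in Control mice (the same counts with total counts), and 11 were higher and 0 lower in PEC than in HN mice (8 and 1), with medians of -1.93 and 0.99. Their sum was 36650, 35290 and 55200 TMM-scaled FPKM in Control libraries, 4093, 5865 and 4857 in HN libraries and 15070, 21030 and 13520 in PEC libraries, most of it from Kap. Without Kap the sums were 6396, 6446 and 6890 in Control libraries, 1659, 1537 and 1595 in HN libraries and 3253, 3707 and 2475 in PEC libraries. Leukocyte markers stood the other way, with 13 of 17 higher in HN than in Control mice and 0 lower (14 and 0 with total counts) and 0 higher and 7 lower in PEC than in HN mice (0 and 10), with medians of 2.46 and -0.82. Their sums were 39.2, 46.0 and 39.1 in Control libraries, 635, 572 and 529 in HN libraries and 258, 272 and 319.7 in PEC libraries, most of it in HN and PEC libraries from Lyz2. Without Lyz2 the sums were 20.5, 28.2 and 21.9 in Control libraries, 120, 111 and 98.2 in HN libraries and 51.6, 63.1 and 79.0 in PEC libraries. Of 12 endothelial and fibroblast markers, 8 were higher in HN than in Control mice and 2 lower (9 and 0 with total counts) and 1 higher and 5 lower in PEC than in HN mice (0 and 6), with medians of 1.24 and -0.37. Their sums were 109, 110 and 108 in Control libraries, 328, 323 and 295 in HN libraries and 210.1, 235 and 217 in PEC libraries, with Col3a1 the most abundant, and without it 105, 106 and 103 in Control libraries, 244, 236 and 217 in HN libraries and 177, 196 and 188 in PEC libraries. The genes of this list did not change alike. In HN against Control mice Col1a1 rose by 4.26 on the log2 scale (edgeR adjusted p = 4.79e-07), whereas the endothelial gene Kdr fell by 1.00 (0.00714), not with total counts (-0.44, edgeR adjusted p = 0.14). Singled out after their values had been seen, the endothelial genes Flt1 (-0.82), Emcn (-0.30), Pecam1 (-0.13) and Cdh5 (0.44) stood far below Col1a1, so that the pooled counts and sums do not describe endothelium. Sgk1 and Tsc22d3 are also expressed in leukocytes and vessels, and the part of these cells in the values was not tested.

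Of 19 nearest relatives of the 9 genes, 18 were tested, and 6 were higher in HN than in Control mice and 7 lower (10 and 4 with total counts), against 3 higher and 10 lower in PEC than in HN mice (2 and 10), with medians of -0.17 and -0.49 where all genes had 0.00 and -0.02. The -0.17 turned to 0.40 with total counts, and of all genes 21.1% were higher and 20.7% lower in HN against Control (45.1% and 7.97% with total counts). Tsc22d1, a relative of Tsc22d3 and the most abundant of them, rose by 1.27 on the log2 scale in HN against Control (edgeR adjusted p = 0.0248), not without Control 4, Control 5, HN 4 or HN 12. The steroid enzyme Hsd17b2 fell by 2.6 in HN against Control and rose by 1.49 in PEC against HN (edgeR adjusted p = 3.42e-05 and 0.00112). Asic3, a relative of the channel subunits, had 0, 0 and 4 counts in Control and 40 to 72 in HN libraries.

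**Figure D5:**
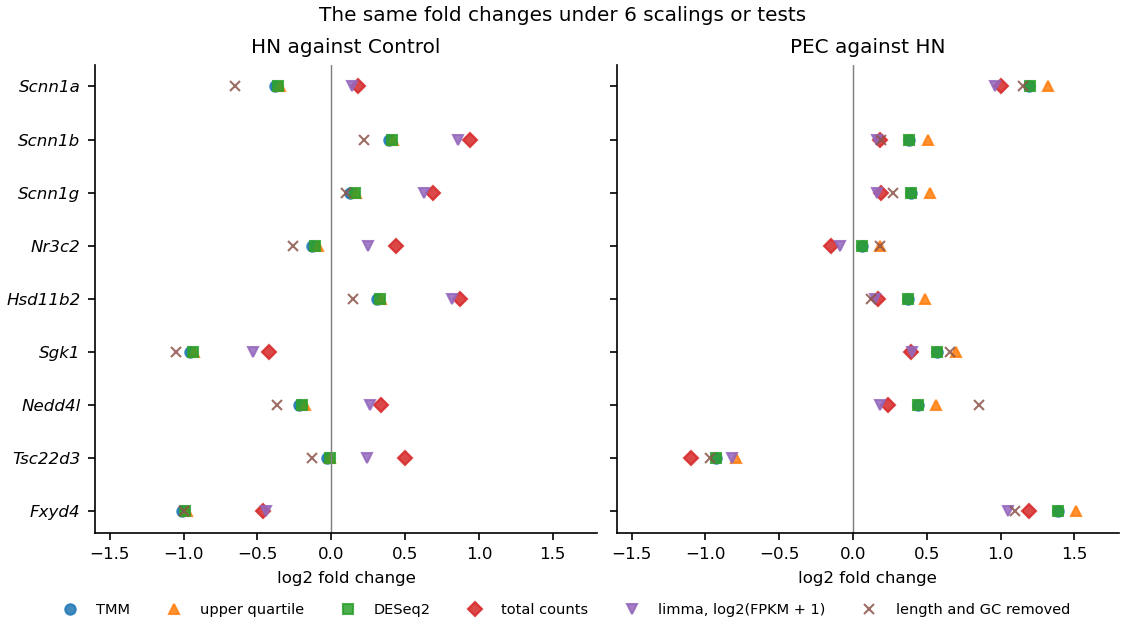
Log2 fold changes of the 9 genes in HN against Control and in PEC against HN (horizontal axis) under 6 scalings or tests, 1 symbol each. In PEC against HN, Scnn1a stayed between 0.96 and 1.32 and Fxyd4 between 1.05 and 1.51, whereas in HN against Control total counts moved Scnn1a from -0.38 to 0.18, Nr3c2 from -0.13 to 0.44, Nedd4l from -0.22 to 0.34 and Tsc22d3 from -0.03 to 0.50.

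The genes most like each member over the 9 libraries were looked up among 13457 genes by Pearson's r of log2 CPM, as a description. Scnn1a was most like Cyp2u1 (r = 0.990), Gm48194 (0.989) and Trappc3 (0.985), and Fxyd4 most like Ndufa7 (0.982), Arl3 (0.981) and Hnrnph3 (0.979). For Hsd11b2 they were Gm23301, Mustn1 and Ppp2r1a (0.985 to 0.968), for Scnn1b D630044L22Rik, Lta4h and Gm15895 (0.974 to 0.968), for Scnn1g Gm23849, Nsmce2 and Exoc7 (0.972 to 0.963) and for Nedd4l Gm2260, Ltv1 and Rap1gds1 (0.967 to 0.961). Sgk1 was most like Arl4d, Adgrf5 and Gpat4 (0.955 to 0.921), Tsc22d3 most like Rpl5-ps1, Gdap2 and Hspa1b (0.930 to 0.912) and Nr3c2 most like Polr1d, Bloc1s5 and Nupl2 (0.905 to 0.867). No member was among the genes listed for another. The 9 libraries come from 3 groups, whose differences enter these values.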

How the data were processed

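Kidney poly(A) RNA libraries of 9 mice were analysed from 1 table with a count and an FPKM per gene and library. The counts are whole reads per gene that the authors deposited without normalization. The FPKM are values that the authors deposited after scaling by gene length and the total count of each library. The submitters' processing notes name Bowtie 0.12.2 and the builds mm8 and mm9, whereas 51991 of 55144 genes have the coordinates of GENCODE release M21 on GRCm38, the build used here. The counting program, its strand setting and the test behind the authors' calls are not given in the sources used here, and the extract text speaks of adipose tissue although the tissue is kidney.

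Counts were tested with edgeR 4.0.16 in R 4.3.3 (filterByExpr with a minimum count of 10, TMM factors, glmQLFit and glmQLFTest in 1 fit of 9 libraries, Benjamini-Hochberg adjustment). The fit was tested on simulated counts, with changes larger than most of those of the 9 genes. Many changes of the smaller simulated size were missed, and smaller ones were not simulated. A gene that did not pass may therefore still differ. Summaries used Python 3.11.15, pandas 2.3.3 and SciPy 1.17.1. Single values were compared with exact permutation tests.

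The genes named are the 9 members, 17 counterparts set by name, and from each of 11 lists the most abundant gene and the largest changes past the test, with the 3 most alike genes of each member. Some of these genes are not reported here. The members and lists were chosen with earlier results of these data known. Alternatives were total counts, upper-quartile factors, DESeq2 1.42.0, limma 3.58.1 with a trend on log2(FPKM + 1) and log2(FPKM + 0.1), other filters on low counts, only the groups compared, removal of mitochondrial and ribosomal RNA genes, removal of length and GC content dependence, a fold of at least 1.5 at an unadjusted p of at most 0.05, each library left out in turn, and other reference genes for the ratio to principal cell markers. Leaving out HN 4 and PEC 2 together, and Krt8 and Krt18 from the principal cell sums, were added after seeing the data.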

Additional observations from a re-analysis of the deposited data

How the results depend on the processing

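Of 540 alternative fold changes of the 9 genes, 427 kept their direction and side of the threshold, 38 gained and 42 lost a call, and 33 reversed. Under each alternative, the cause was not tested. Genes higher in HN than in Control mice (0) became 4 with total counts, 3 with both limma fits, 2 with a mean FPKM of at least 1, 1 with upper-quartile factors, DESeq2 and only the groups compared, and 0 to 1 with each library left out. Those lower (2) became 0 with total counts and both limma fits, 1 with upper-quartile factors, no filter, a mean FPKM of at least 1 and only the groups compared, 3 with DESeq2 and with length and GC content removed, and 1 to 3 with each library left out. The count stayed at 2 with the fold limit of 1.5 and with HN 4 and PEC 2 both left out. In both, however, the genes were Sgk1 and Fxyd4, and Scnn1a was lost. Genes higher in PEC than in HN mice (5) became 2 with total counts, both limma fits and the fold limit of 1.5, 3 without a filter and with length and GC content removed, 4 with only the groups compared and with HN 4 and PEC 2 both left out, 6 with upper-quartile factors, and 2 to 6 with each library left out. Genes higher in PEC than in Control mice (4) became 6 with total counts, upper-quartile factors and both limma fits, 5 with a mean FPKM of at least 1 and with HN 4 and PEC 2 both left out, 3 with length and GC content removed and with the fold limit of 1.5, and 4 to 5 with each library left out. Those lower (0) became 1 with only the groups compared and 0 to 1 with each library left out.

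Reversed in HN against Control were, with total counts, Scnn1a (0.18), Nr3c2 (0.44), Nedd4l (0.34) and Tsc22d3 (0.50), with limma on log2(FPKM + 1) the same genes (0.14, 0.25, 0.26 and 0.24), and with log2(FPKM + 0.1) again (0.14, 0.36, 0.32 and 0.25). Tsc22d3 was 0.04 with a mean FPKM of at least 1, 0.00 with only the groups compared and -0.96 to 0.29 with each library left out, and Nr3c2 -0.37 to 0.06, and 0.06 with HN 4 and PEC 2 both left out, an alternative chosen after seeing the data. In PEC against HN, Nr3c2 was -0.15 with total counts, -0.09 and -0.12 with limma, -0.17 with both libraries left out and -0.14 to 0.30 with each left out, and Tsc22d3 0.05 with both and -1.25 to 0.00 with each left out. In PEC against Control, Nr3c2 was 0.29 with total counts, 0.08 with upper-quartile factors, 0.16 and 0.24 with limma, 0.02 with a mean FPKM of at least 1 and -0.19 to 0.07 with each left out.

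With length and GC content removed, the ratio of Scnn1g to Scnn1a differed by 0.76 between HN and Control mice and that of Hsd11b2 to Nr3c2 by -0.10 between PEC and HN mice. The ratio of Nr3c2 to Nr3c1 in HN against Control lay at -0.18 to 0.29 with each library left out. The ratio of the subunits to principal cell markers was 1.47, 1.45 and 0.50 in HN against Control with Aqp2, Aqp3 and Avpr2 alone, and -0.10 and -0.13 in PEC against HN with Aqp3 and Avpr2. On the log2 scale, the summed level of principal cell markers other than Aqp2 differed by 0.26 in HN against Control, 0.26 in PEC against HN and 0.52 in PEC against Control, and by -0.26, 0.43 and 0.17 without Krt8 and Krt18, an alternative chosen after seeing the data. The 0.17 rested on Tmem213. limma on log2(FPKM + 1) called 11 leukocyte markers in PEC against HN and 5 sodium pump genes in PEC against Control. With 3 libraries in a group, no exact permutation test can reach p below 0.1.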
